A study of Mus musculus with 16 samples.

Results

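Cortex libraries of 3 THY-Tau22 males (TGM 7, 8 and 10) were compared with those of 3 wild-type (WT) males (WTM 1, 3 and 5), 6 of the 16 libraries of the series. The members were taken by title code, and a library number gives its place in the series. The question was which transcripts differ with the tau transgene in males late in the disease. The 6 count tables held 18000 cell barcodes, of which 10748 had 200 to 7000 detected genes and were kept (28530 in the whole series). Barcodes kept per library ranged from 1429 to 2526 in WT males and from 1393 to 1973 in THY-Tau22 males, with 878264 to 2089367 and 1048090 to 1458804 UMIs (unique molecular identifiers, each standing for 1 captured transcript).

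All mice were 17 months old. THY-Tau22 mice were heterozygous for a human 4-repeat tau transgene with the G272V and P301S changes, driven by a Thy1.2 promoter and therefore expressed in neurons, and the WT mice were littermates without it. The whole neocortex of 1 hemisphere was dissociated after perfusion with saline, and 1 library was made per mouse by Drop-seq. The other libraries came from 3 WT females and 5 THY-Tau22 females (WTF and TGF) and from a further male of each genotype.

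Those 2 further males, WTM 4 and TGM 11, were left out because their tables shared 2952 of 3000 barcodes (98.4%), whereas the 15 pairs within the comparison shared 4 to 8. Their common library is listed under both genotypes. WTM 1 and TGF 2 carry the same animal number in their titles. The titles also give each library an index number, and the numbers of the WT males (1, 5 and 6) and of the THY-Tau22 males (3, 4 and 7) do not intersect, so that genotype and index number cannot be told apart within males. Among the females, 5 libraries carry the same numbers in another arrangement (TGF 6, TGF 15 and WTF 16 those of the WT males, TGF 9 and WTF 12 those of the THY-Tau22 males), and the difference between the number sets was measured there. The titles of TGF 15 and WTF 16 hold the code MB22, and those of all other libraries MB21. Among these 5 females that code goes in part with the number set, and the measured difference does not separate them.

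Tau binds and stabilizes microtubules in axons, and in tauopathies it detaches, becomes hyperphosphorylated and aggregates inside neurons. Microglia, the resident macrophages of the brain, sense such neurons through receptors such as TREM2 and can leave their homeostatic state for one called disease-associated, with more lipid-handling, lysosomal and antigen-presentation transcripts. Oligodendrocytes insulate axons with myelin, astrocytes supply lipids and energy substrates, and endothelial cells form the blood-brain barrier.

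The libraries were checked against their labels. Xist, the X-inactivation transcript, reached at most 2.06 CPM of plain library totals in the 6 male libraries, and 4 Y-linked genes summed to 228 to 279 CPM on those totals, so both matched the labelled sex. The transgene is human and the reference mouse, and no count was used as a check of genotype. Whether transgene reads were counted under mouse Mapt or Thy1 was not tested. From here CPM are counts scaled to equal library size with TMM factors, except where totals are named. Mouse Mapt, the endogenous tau gene, lay at 253, 317 and 269.7 CPM in WT and 363, 266 and 249 CPM in THY-Tau22 males (log2 fold change 0.06, adjusted p = 0.882). Thy1, the source of the promoter, lay at 4.95 to 14.3 and 10.5 to 36.8 CPM (adjusted p = 0.178). Neuronal markers were sparse, and neuron-like barcodes made up 5.31% ± 1.06 of the WT and 4.06% ± 1.11 of the THY-Tau22 barcodes (SD, n = 3 each).

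The make-up of the libraries differed between the groups without overlap in 5 of the 10 measures compared. Mitochondrial ribosomal RNA made up 11.9% ± 1.07 of the UMIs in THY-Tau22 and 19.7% ± 3.01 in WT males (SD, n = 3 each), and Malat1, a long noncoding RNA retained in nuclei, 3.69% ± 0.667 and 5.65% ± 0.615. Mitochondrial mRNA took 1.20% ± 0.242 and 0.576% ± 0.121, ribosomal protein mRNA 1.94% ± 0.226 and 1.10% ± 0.121, and immediate early genes 1.98% ± 0.0837 and 1.56% ± 0.108. Each of these differences had a two-sided exact permutation p of 0.1, the smallest that 3 against 3 allows (adjusted p = 0.2 over 10 measures). All 5 are shares of the same UMIs and so are not independent. With TMM factors the summed immediate early genes overlapped, at 16261 to 18128 CPM in WT and 17211 to 20441 CPM in THY-Tau22 males. Among the 5 female libraries, those with the index numbers of the THY-Tau22 males had 11.6% and 12.7% mitochondrial ribosomal RNA, and those with the numbers of the WT males 18.8% to 23.1%, whatever their genotype. The part of index number in the male difference cannot be told apart from that of genotype.

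**Figure D1:**
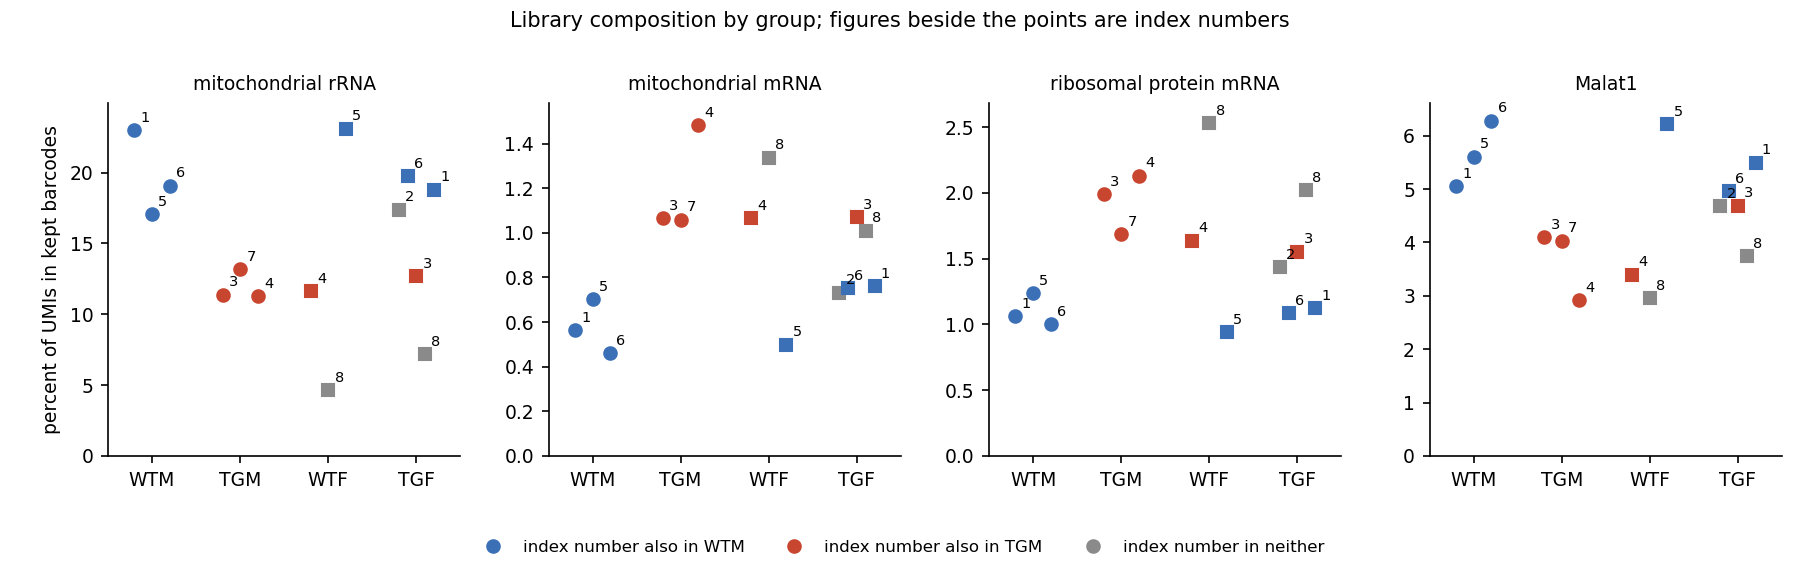
Percent of the UMIs in kept barcodes that came from mitochondrial ribosomal RNA, mitochondrial mRNA, ribosomal protein mRNA and Malat1, with 1 point per library, circles for males and squares for females. Figures beside the points are index numbers. The WT males (blue circles) and THY-Tau22 males (red circles) do not overlap in any panel, and the female libraries in red, which carry index numbers of the THY-Tau22 males, lie at 11.6% and 12.7% in the first panel, nearer the red circles than the blue squares at 18.8% or more.

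Of 10530 genes tested, 640 (6.08%) differed between THY-Tau22 and WT males at an adjusted p below 0.05 with a log2 difference of 0.5 or more in either direction in edgeR's quasi-likelihood test. Of these, 443 (4.21%) were higher and 197 (1.87%) lower in THY-Tau22 males, so that 69.2% of the calls were higher. The share was 58.0% of 626 calls with DESeq2, and 92.3% of 1113 calls with library totals alone, a scaling that moved the median log2 fold change of all genes from 0.01 to 0.20. The 3 libraries of one group did not overlap the 3 of the other in 3064 genes (29.1%), among them 624 of the 640. The number of calls depended on single libraries, with 53 without WTM 5, 134 without WTM 1, 246 without TGM 7, 276 without WTM 3, 376 without TGM 10 and 931 without TGM 8. In all 6 of these fits, 36 of the higher and 4 of the lower genes were called. With the doubly listed library added as TGM 11 edgeR called no gene (1748 at an unadjusted p under 0.05), and added as WTM 4 it called 621. In libraries summed over all barcodes, more cells of a type and more RNA per cell cannot be told apart.

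**Figure D2:**
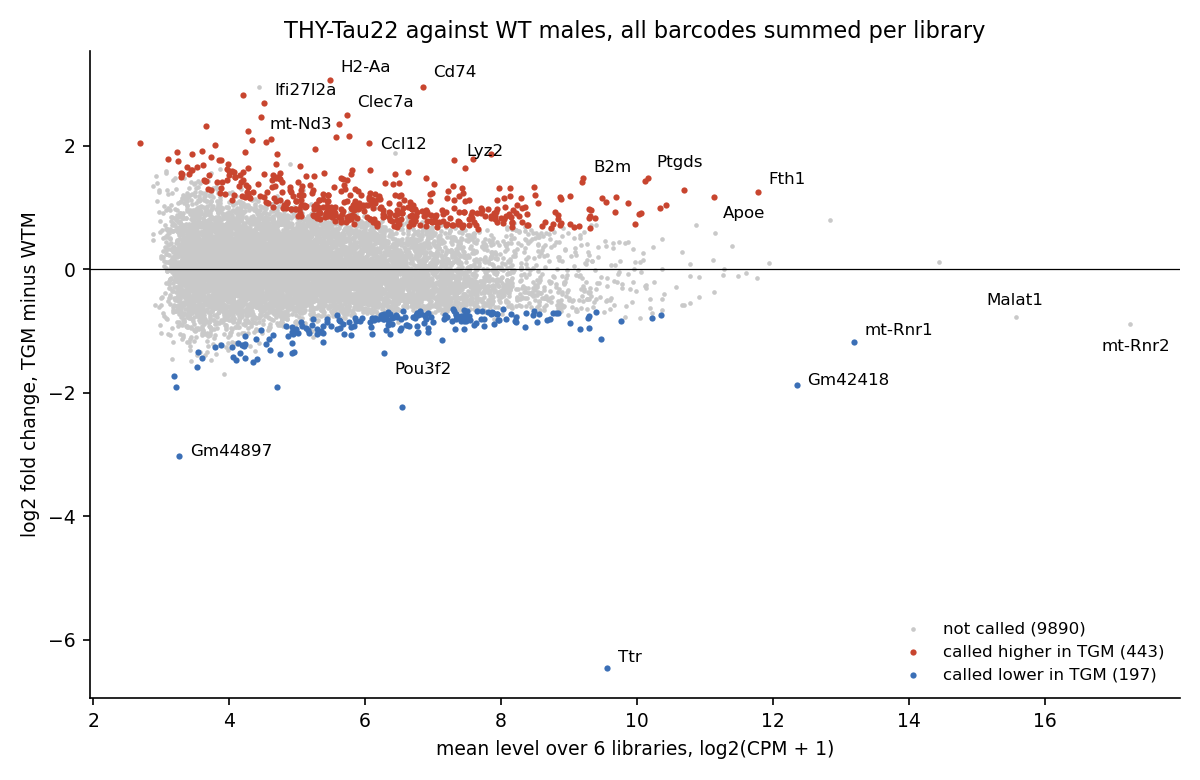
Log2 fold change of THY-Tau22 over WT males against the mean level over the 6 libraries, log2(CPM + 1), for the 10530 genes tested, with 443 called higher in red and 197 called lower in blue. Called genes with the largest positive values are immune transcripts such as H2-Aa and Cd74 (log2 fold changes of 3.06 and 2.94), and the abundant transcripts mt-Rnr1 and Gm42418 lie among those called lower.

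Disease-associated microglia genes were higher in THY-Tau22 males: 14 of 20 tested passed the test (70%, beside 6.08% of all genes) and none was lower. Their median log2 fold change was 1.16, where the median over all genes was 0.01. Clec7a, a pattern receptor of activated microglia, lay at 16.1, 14.3 and 16.1 CPM in WT males and at 148, 65.1 and 53.7 CPM in THY-Tau22 males (log2 fold change 2.49 ± 0.34, SE, adjusted p = 0.00164). Its lowest THY-Tau22 library was above every WT library. Apoe, the main lipid carrier of the brain, rose from 1382 ± 101 to 3112 ± 874 CPM (SD, n = 3 each, adjusted p = 0.0112). Trem2 read 117, 117 and 66.8 CPM in WT and 172, 193 and 323 CPM in THY-Tau22 males, and its signalling adapter Tyrobp 190.2, 238 and 152 CPM against 395, 316 and 580.4 CPM. Their log2 fold changes were 1.18 and 1.15 (adjusted p = 0.0133 and 0.0109), again with no overlap. Lyz2, encoding lysozyme, rose by 1.76 on the log2 scale and Cd52, a surface glycoprotein of leukocytes, by 1.60, and both were called whichever library was left out. Leaving out a library does not part genotype from index number. Cst7, a cysteine protease inhibitor, lay at 3.22 to 6.69 and 9.65 to 63.7 CPM and was called in 3 of the 6 fits without a library, and Spp1 (osteopontin) reached an adjusted p of 0.0412 with overlapping libraries. The list had an index difference of 0.62 in females, and 0.42 was left with the index term. On female totals Clec7a read 37.7 and 48.9 CPM in TGF 9 and WTF 12, which have index numbers of the THY-Tau22 males. It read 20.8, 18.5 and 4.71 CPM in TGF 6, TGF 15 and WTF 16. In the same order Apoe read 2828 and 3034 against 1507, 1973 and 1286 CPM, and Lyz2 151 and 245 against 92.3, 80.0 and 49.5 CPM.

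Homeostatic microglia genes gave no call among 12 tested in edgeR, where 6.08% of all genes were called. At an unadjusted p under 0.05 in edgeR, 5 were higher and 1 lower, and DESeq2 called 1 in each direction. Cx3cr1, the fractalkine receptor that marks resting microglia, lay at 2171, 2072 and 1549 CPM in WT and 1488, 1456 and 951 CPM in THY-Tau22 males (log2 fold change -0.57, adjusted p = 0.133). Siglech, a lectin receptor, had a log2 fold change of 0.08. The summed level of the 9 microglia markers was 7325 to 7959 CPM in WT and 8115 to 8222 CPM in THY-Tau22 males.

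Markers of macrophages and lymphocytes were also compared, as summed levels and not as numbers of cells. Defining markers of perivascular and meningeal macrophages summed to 45.0 to 98.5 CPM in WT and 95.7 to 161 CPM in THY-Tau22 males, with overlap, and 1 of 4 tested was called. Their median log2 fold change was 0.85, beside an index difference of 1.29 in females, and -0.46 with the index term. Markers of T and NK cells summed to 13, 7 and 3 UMIs in WT and 19, 38 and 50 UMIs in THY-Tau22 males, too few for any of the 7 to be tested. Macrophage-like barcodes were 0.809% ± 0.121 of the WT and 1.83% ± 0.596 of the THY-Tau22 barcodes (SD, n = 3 each, exact permutation p = 0.1, the smallest possible). With a finer clustering that difference fell from 1.02 to 0.180 percentage points, and the libraries overlapped. Their part in the difference in microglial and antigen-presentation genes was not tested.

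**Figure D3:**
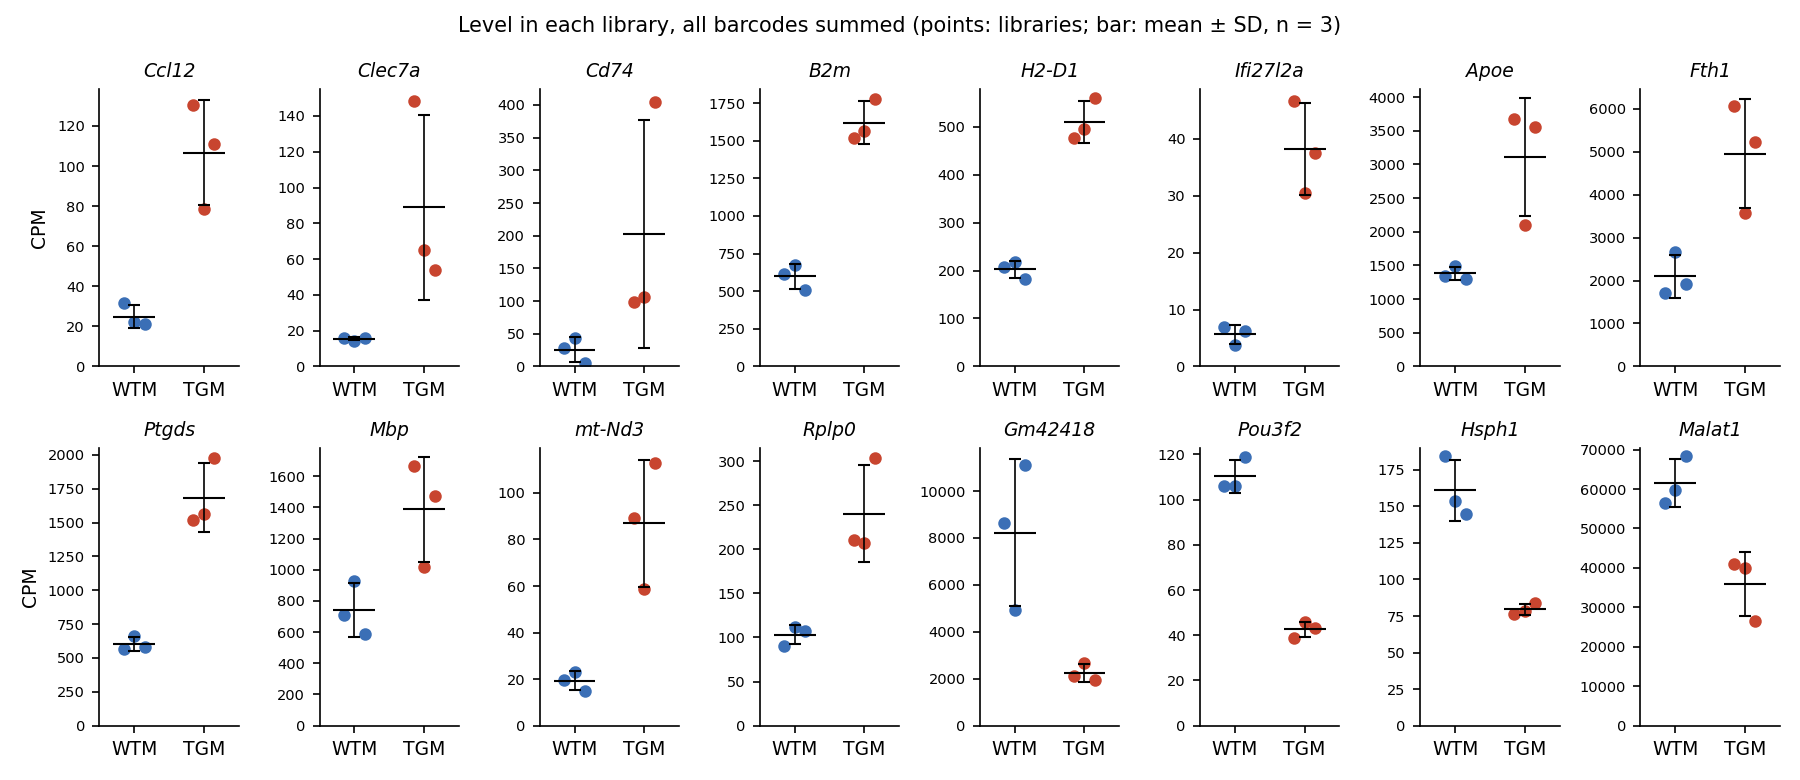
CPM of 16 genes in each library, all kept barcodes summed, with 1 point per library and a bar for the mean ± SD (n = 3 each). WT (blue) and THY-Tau22 (red) points are apart in all 16 panels, and the THY-Tau22 points of Cd74, Clec7a and Apoe are widely spread, at 98.0 to 404, 53.7 to 148 and 2105 to 3676 CPM. The genes were picked for display and all but Malat1 were called, so the lack of overlap comes with the choice. Libraries were apart in 624 of the 640 called genes and in 29.1% of all genes tested.

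Of 18 tested chemokine and cytokine genes, 8 were called higher in THY-Tau22 males and none lower (44.4%, beside 6.08% of all genes). Their median log2 fold change was 0.96, beside an index difference of 0.27 in females. Ccl12, a monocyte attractant, lay at 31.6, 21.99 and 21.03 CPM in WT and at 130.3, 78.8 and 111 CPM in THY-Tau22 males, a log2 fold change of 2.04 ± 0.25 (SE, adjusted p = 5.39e-04). Ccl3 and Ccl4, chemokines of activated microglia, rose by 1.32 and 1.41 on the log2 scale, Ccl4 from 319 ± 86.9 to 849 ± 77.6 CPM. Cxcl2, a neutrophil attractant, rose by 1.55. These 4 genes were called whichever library was left out, which does not part genotype from index number. Ccl2 read 17.7, 9.56 and 4.95 CPM in WT and 40.9, 22.5 and 53.1 CPM in THY-Tau22 males (log2 fold change 1.71, adjusted p = 0.0158) and was called in 3 of those 6 fits. Cxcl12, made by vascular cells, had a log2 fold change of -0.43 (adjusted p = 0.183).

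Of 17 tested genes of the MHC class I pathway, which displays peptides from inside the cell, 5 were called higher and none lower (median log2 fold change 0.57, beside an index difference of 0.56 in females), and DESeq2 called 3. The edgeR calls were 29.4% of the list, beside 6.08% of all genes. B2m, the invariant light chain, lay at 614, 674 and 511 CPM in WT and at 1516, 1564 and 1781 CPM in THY-Tau22 males, a log2 fold change of 1.43 ± 0.21 (SE, adjusted p = 0.00164). The heavy chain gene H2-D1 read 208, 217 and 182 CPM against 477, 494 and 559.8 CPM, and H2-K1 220.3, 186 and 176 CPM against 355, 341 and 388 CPM. Both groups were tight, and the gap between them was wider than the spread within either. H2-Q7 and H2-Q6, nonclassical heavy chains, had log2 fold changes of 2.06 and 1.58 on 7 to 52 UMIs per library. Heavy chain genes are alike in sequence, and the tables do not show how reads were divided among them. Calr, a chaperone of peptide loading, had a log2 fold change of 0.06 (adjusted p = 0.88).

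Promoters of the called heavy chain genes hold a common stretch, shown because these genes moved together. In each line the capitals mark a match to GAANNGAAA, letters of the kind bound by interferon regulatory factors, searched on both strands over the 250 bases before each start site (RefSeq, GRCm38.p6).
H2-D1, chr17:35262936-35262960, plus strand: ctcctcagTTTCACTTCtgcaccta
H2-K1, chr17:34000421-34000445, minus strand: ctccacagTTTCACTTCtgcaccta
H2-Q6, chr17:35424690-35424714, plus strand: ctccccagTTTCACTTCtgctccta
H2-Q7, chr17:35439034-35439058, plus strand: ctccccagTTTCACTTCtgctccta
The motif was found in 4 of the 5 called class I genes, B2m being the other, in 2 of the 11 other class I genes tested that have a promoter entry (Tap2 has none), and in 6.31% of 32851 promoters of the same length. The heavy chain promoters are related copies, so these matches are not independent, and a match is no evidence of binding.

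Class II genes, which serve professional antigen-presenting cells, gave 4 calls among 7 tested, all higher, and 2 with DESeq2. The edgeR calls were 57.1% of the list, beside 6.08% of all genes. The median log2 fold change was 1.70, beside an index difference of 1.02 in females, and 0.66 with the index term. Cd74, the invariant chain, lay at 28.4, 43.0 and 4.95 CPM in WT and 98.0, 106 and 404 CPM in THY-Tau22 males (log2 fold change 2.94 ± 0.49, SE, adjusted p = 0.00381). H2-Aa and H2-Ab1, the alpha and beta chains, had log2 fold changes of 3.06 and 2.14 and were called in 4 and 3 of the 6 fits without a library. The 3 genes were highest in TGM 10 and lowest in WTM 5, where H2-Aa had 0 UMIs. Without the top barcode of each library their log2 fold changes were 3.06 for Cd74, 3.09 for H2-Aa and 2.30 for H2-Ab1, all still called. On female totals Cd74 read 70.6 and 89.9 CPM in TGF 9 and WTF 12, which have index numbers of the THY-Tau22 males. It read 31.1, 36.9 and 4.71 CPM in TGF 6, TGF 15 and WTF 16. In the same order H2-Aa read 21.7 and 19.8 against 3.46, 14.4 and 3.53 CPM, and H2-Ab1 30.7 and 29.1 against 16.2, 25.6 and 7.07 CPM.

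Interferon-stimulated genes were called higher in 5 of 21 cases (median log2 fold change 0.61, beside an index difference of 0.58 in females), and in 4 with DESeq2. The edgeR calls were 23.8% of the list, beside 6.08% of all genes. Ifi27l2a lay at 6.97, 3.82 and 6.19 CPM in WT and at 46.6, 30.5 and 37.4 CPM in THY-Tau22 males, a log2 fold change of 2.68 ± 0.34 (SE, adjusted p = 5.39e-04) on 4 to 60 UMIs per library. Ifitm3 and Bst2, membrane proteins that restrict viruses, rose by 0.94 and 1.21 on the log2 scale, and Ly6e by 0.71. With index number as a term Ifitm3 and Ly6e turned to -0.24 and -0.31. Complement C1qb and C1qa, which tag synapses and debris, rose by 1.15 and 0.83, whereas C1qc, the third chain of the same complex, had a log2 fold change of 0.72 and missed the threshold (adjusted p = 0.0569). Among lysosomal genes 5 of 21 (23.8%) were called higher, including Cd68, a marker of phagocytes, at 28.1 ± 10.0 CPM in WT and 80.8 ± 29.1 CPM in THY-Tau22 males, and Lamp1, a protein of the lysosome membrane (log2 fold changes 1.53 and 0.81).

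Some myelin and oligodendrocyte transcripts were higher in THY-Tau22 males. Of 20 myelin genes tested, 7 were called higher and none lower (35%, beside 6.08% of all genes). Their median log2 fold change was 0.67. Mbp, which compacts the myelin sheath, lay at 709, 928 and 589 CPM in WT and 1669, 1018 and 1476 CPM in THY-Tau22 males (log2 fold change 0.90, adjusted p = 0.0314). Car2, a carbonic anhydrase of oligodendrocytes, Mag, an adhesion protein of the myelin sheath, Apod, a lipid carrier, and Cryab, a small heat-shock protein, rose by 0.99, 0.96, 1.17 and 1.47 on the log2 scale. Gjb1, the connexin of oligodendrocyte gap junctions, rose by 1.40 and was the only one of these 6 called in every fit without a library.

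Ptgds, which makes prostaglandin D2 and is abundant in oligodendrocytes and meninges, lay at 567, 664 and 581.5 CPM in WT and at 1516, 1560.4 and 1978 CPM in THY-Tau22 males, a log2 fold change of 1.48 ± 0.21 (SE, adjusted p = 0.00164). Gstp1, a glutathione transferase, read 71.3, 109 and 77.9 CPM against 499, 179 and 209.7 CPM (log2 fold change 1.78). Its processed pseudogene Gstp-ps moved with it (1.86), and the counts do not separate the pair. The 8 oligodendrocyte markers summed to 20511 to 31417 CPM in WT and 19368 to 36037 CPM in THY-Tau22 males, and oligodendrocyte-like barcodes were 17.7% ± 2.07 and 21.6% ± 7.11 of the barcodes (SD, n = 3 each, exact permutation p = 0.7). Their part in the myelin difference was not tested.

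Iron, lipid and redox genes gave scattered calls, to be read beside the 6.08% called over all genes. Fth1, the ferritin heavy chain that stores iron, lay at 1699.9, 2669 and 1919 CPM in WT and at 6069, 3568 and 5228 CPM in THY-Tau22 males (log2 fold change 1.24 ± 0.26, SE, adjusted p = 0.0118), the only call among 10 genes of iron storage and transport. Trf, transferrin, had a log2 fold change of 0.59 with overlapping libraries. Antioxidant enzymes were called higher in 5 of 18 cases, Gstp1, Prdx1, Gpx1, Txn1 and Gstm1. The zinc-binding metallothioneins Mt1 and Mt2 rose from 481 ± 98.6 to 1015 ± 401 CPM and from 176 ± 26.9 to 355 ± 105 CPM, and Mt3, the brain-enriched member, did not pass the test (adjusted p = 0.324). Scd2, a fatty acid desaturase, had a log2 fold change of 0.27 (adjusted p = 0.475). Cholesterol synthesis gave no call among 14 genes in edgeR (2 at an unadjusted p under 0.05) and none with DESeq2.

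Transcripts of respiration and translation gave calls in 1 direction, though most members did not pass. Their counts stand beside the 6.08% called over all genes. Of the 8 mitochondrially encoded mRNAs tested 5 were called, led by mt-Nd3, a subunit of complex I, at 19.8, 22.9 and 14.8 CPM in WT and 89.4, 58.7 and 113 CPM in THY-Tau22 males (log2 fold change 2.16 ± 0.27, SE, adjusted p = 5.39e-04). mt-Cytb, of complex III, rose by 1.28. Nuclear-encoded subunits of the respiratory chain were called higher in 12 of 47 cases, and all 47 had a positive log2 fold change (median 0.51, and 0.08 with the index term). Atp5j, a subunit of ATP synthase, rose from 116 ± 14.3 to 250.2 ± 17.7 CPM and Cox8a, of cytochrome c oxidase, from 164 ± 44.2 to 364 ± 62.9 CPM. Cytosolic ribosomal proteins were called higher in 28 of 77 cases (median log2 fold change 0.64, and 0.14 with the index term), Rplp0 from 103 ± 11.3 to 241 ± 55.0 CPM, while Rpl4 read 616 ± 68.5 and 675 ± 39.5 CPM (adjusted p = 0.724). Glycolytic enzymes gave 3 calls among 16, among them the aldolases Aldoa and Aldoc (log2 fold changes 1.24 and 0.97).

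Among nuclear and structural RNAs the calls were lower. mt-Rnr1, the small ribosomal RNA of mitochondria, fell from 13018 ± 4117 to 5765 ± 804 CPM (log2 fold change -1.18, adjusted p = 0.0192), and mt-Rnr2, the large one, lay at 173777 to 241324 CPM in WT and 97065 to 124351 CPM in THY-Tau22 males (adjusted p = 0.0909). Gm42418, a locus that overlaps a ribosomal RNA repeat, read 8649.5, 4909.7 and 11114 CPM in WT and 2097, 2655 and 1929.8 CPM in THY-Tau22 males, a log2 fold change of -1.88 ± 0.29 (SE, adjusted p = 0.00215). Malat1 lay at 56577, 59793 and 68259 CPM against 40909.5, 40092 and 26552 CPM, with no overlap and an adjusted p of 0.103. Of 9 nuclear long noncoding RNAs tested, 2 were called lower and none higher (median log2 fold change -0.53, and 0.39 with the index term). These calls were 22.2% of the list, beside 6.08% of all genes.

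Among protein-coding genes called lower, Pou3f2, a transcription factor of neural progenitors and astrocytes, lay at 106, 106 and 119 CPM in WT and 39.0, 45.8 and 43.1 CPM in THY-Tau22 males (log2 fold change -1.36 ± 0.20, SE, adjusted p = 0.00164). Hsph1, a large heat-shock protein that recycles HSP70, read 184, 154 and 145 CPM against 76.1, 78.8 and 83.6 CPM (log2 fold change -1.02). Chaperones as a list went both ways, with 3 of 16 called higher and 2 lower and a median of -0.11 that became 0.06 with library totals alone. The calls were 31.25% of the list, beside 6.08% of all genes. Hspa1a, the inducible HSP70, rose from 70.4 ± 20.3 to 186 ± 87.3 CPM, Hspb1, a small heat-shock protein, from 143 ± 17.3 to 244 ± 32.1 CPM, and Bag3, which hands HSP70 clients to autophagy, fell from 24.3 ± 2.68 to 11.3 ± 3.54 CPM. Hsp90aa1 and Hsp90ab1 had log2 fold changes of -0.21 and -0.14. Edn1, the vasoconstrictor endothelin 1, read 139.9, 136 and 204 CPM against 81.8, 89.2 and 74.3 CPM (log2 fold change -0.96).

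Genes that act on tau or microtubules were tested as a list of 21, with 3 called higher and 1 lower, where 6.08% of all genes were called. Map1b, a microtubule-associated protein of growing axons, lay at 243, 347 and 334 CPM in WT and 154, 172 and 169 CPM in THY-Tau22 males (log2 fold change -0.89 ± 0.20, SE, adjusted p = 0.0159). Tubb4a, a tubulin of oligodendrocytes and neurons, read 79.3, 115 and 68.0 CPM against 332, 121 and 219 CPM (log2 fold change 1.35, adjusted p = 0.0132), with TGM 8 just above WTM 3. Zc3h13 and Ythdc2, a member of the m6A methyltransferase complex and a reader of the mark, were called lower (-0.80 and -0.999), the only calls among 14 genes of m6A methylation. Presynaptic genes gave no call among 16 in edgeR (2 at an unadjusted p under 0.05) or DESeq2, and Syt4, a synaptotagmin outside that list, fell from 42.7 ± 12.4 to 16.0 ± 4.63 CPM.

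Immediate early genes, which mark recent stimulation or dissociation, gave 1 call among 20, the endothelial transcription factor Klf2, which rose by 0.85 on the log2 scale. DESeq2 called 3 higher, and 8 were higher at an unadjusted p under 0.05 in edgeR. Fos, Jun and Egr1 had log2 fold changes of 0.15, 0.10 and -0.11. Blood-brain barrier genes gave no call among 14 in edgeR (2 at an unadjusted p under 0.05, both lower) or DESeq2. Reactive astrocyte genes gave none among 7 (2 at an unadjusted p under 0.05) by either tool, and subunits of the sodium-potassium ATPase none among 8 (2 at an unadjusted p under 0.05) by either tool. Over all genes 6.08% were called in edgeR, so at most 1 call does not set lists this short apart. Of the 10 genes that the study set out in its main table, Fth1, Mbp and Apod were called higher and Zc3h13 lower. Those genes were chosen on these samples and are not independent evidence.

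**Figure D4:**
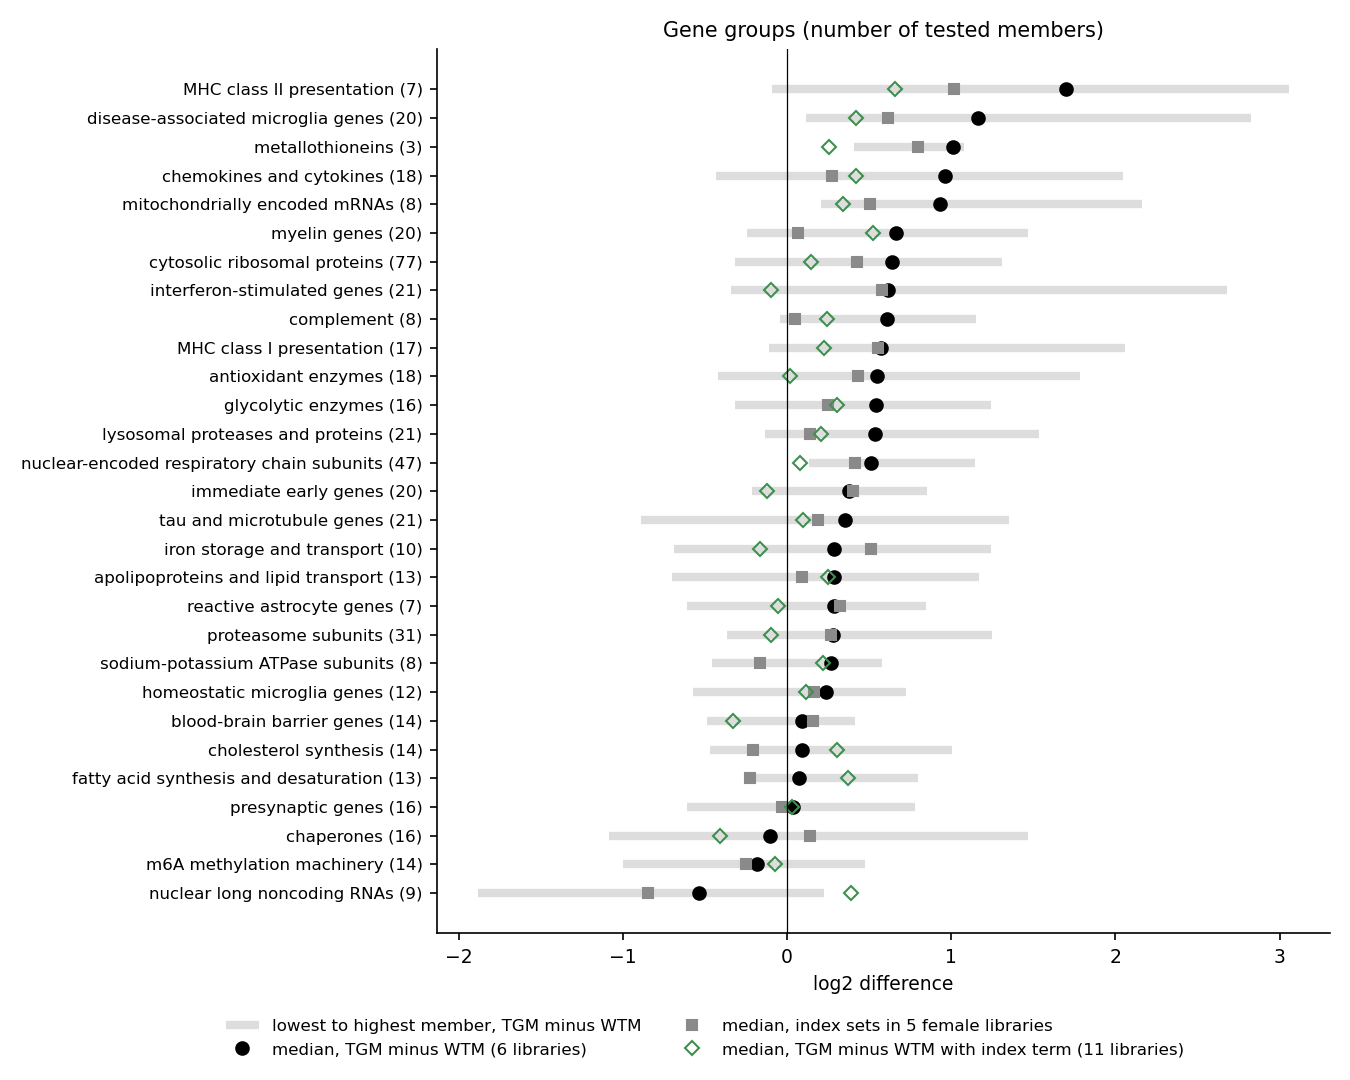
Log2 differences of 29 gene groups, with the number of members tested in brackets. Grey bars span the lowest to the highest member and black circles give the median of THY-Tau22 over WT males in 6 libraries, squares the median difference between the index number sets in 5 female libraries, and diamonds the median of the male comparison with an index term in 11 libraries. The squares lie on the side of the black circles in 24 groups, and the diamonds are nearer 0 than the circles for MHC class II presentation (0.66 against 1.70) and for disease-associated microglia genes (0.42 against 1.16).

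The difference between the index number sets was estimated with genotype in the model, and its size came from the 5 female libraries alone. The fit held 11 libraries, however, and the 6 males among them entered its filter, scaling and spread. Calls of this fit are therefore not independent of those of the male comparison. The index difference was called in 32 of 11930 genes (0.268%), of which 25 were also called in males in the same direction, 78.1% of the 32 and 3.91% of the 640. The sign of the female index difference was that of the male comparison for 435 of the 443 genes higher in THY-Tau22 males and for 193 of the 197 lower ones, against 70.7% of all 10530 genes. The higher genes had a median log2 fold change of 1.03 in males and a median index difference of 0.66 in females, and the lower genes medians of -0.86 and -0.57. Across genes, the male log2 fold change and the female index difference had a Pearson r of 0.554 (10530 genes, which are not independent) and of 0.731 over the 1734 genes of 100 CPM or more.

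The index difference is shown here for Gm42418, B2m and Pou3f2 on the female libraries' own totals. All 3 are among the 25 genes called in both comparisons, so their values are an illustration and no further evidence. Gm42418 lay at 3302 and 1549.9 CPM in TGF 9 and WTF 12, which have index numbers of the THY-Tau22 males, and at 7371, 7277 and 9664 CPM in TGF 6, TGF 15 and WTF 16. B2m read 1449 and 1665 CPM in the first 2 and 727, 750.5 and 463 CPM in the other 3. Pou3f2 read 64.3 and 33.1 CPM against 113, 103 and 95.4 CPM. For these 3 genes the female libraries parted by index number and not by genotype.

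When index number entered the male comparison as a term, with 11 libraries, edgeR called none of 11930 genes (478 at an unadjusted p under 0.05, smallest adjusted p = 0.994). In such a fit the male difference is what is left after the female index difference is subtracted, so its error is that of both. The medians left were 0.35 for the genes called higher and -0.33 for those called lower. Gpx1, Hspb1, Klf2, Lamp1, Prdx1 and mt-Rnr1 turned direction, as did Ifitm3 and Ly6e, and Gm42418 came to 0.00316. A fit of 14 libraries with 1 mean per group, in which the 8 female libraries set much of the spread, also called none of 11643 genes (1792 at an unadjusted p under 0.05).

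Some called genes had a small index difference in females. Ccl2 (log2 fold change 1.71 in males) had one of -0.00, Ccl6, another microglial chemokine (1.26), of 0.11, Tubb4a (1.35) of 0.15, and Adam9, a membrane protease (1.41), of 0.14. Edn1 (-0.96) had one of -0.08, and Hsph1 (-1.02) one of -0.28. For Gstp1 (1.78) it was 0.52. At the other end Rps16-ps2, Cxcl2, Gadd45b and Gm42418 had index differences of 1.17, 1.44, 1.37 and -1.91, close to their male values of 1.18, 1.55, 1.48 and -1.88. The index difference in myelin genes had a median of 0.06, beside 0.67 in the male comparison. In disease-associated microglia genes it was 0.62, beside 1.16, and in MHC class II genes 1.02, beside 1.70. In other groups it was close to the male median, at 0.56 beside 0.57 for MHC class I, 0.58 beside 0.61 for interferon-stimulated genes (-0.10 left with the index term), 0.41 beside 0.51 for the respiratory chain and -1.15 beside -1.03 for the mitochondrial ribosomal RNAs. None of these differences between comparisons passed a test, since no gene was called with the index term.

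The calls followed transcript length. Called genes with an annotated model (GENCODE M21, longest transcript) had a median length of 1348.5 bases when higher (434 genes) and 6330 bases when lower (193 genes), beside 3471 bases over 10296 genes. In the shortest tertile of genes 10.5% were called higher and 0.524% lower, and in the longest tertile 0.379% and 4.31%. The median log2 fold change was 0.32, 0.01 and -0.24 from the shortest to the longest tertile, the female index difference 0.27, -0.03 and -0.26, and the female genotype difference -0.09, -0.00 and 0.03. Pseudogenes were 57 of the 443 higher and 3 of the 197 lower genes, and 563 of all tested.

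**Figure D5:**
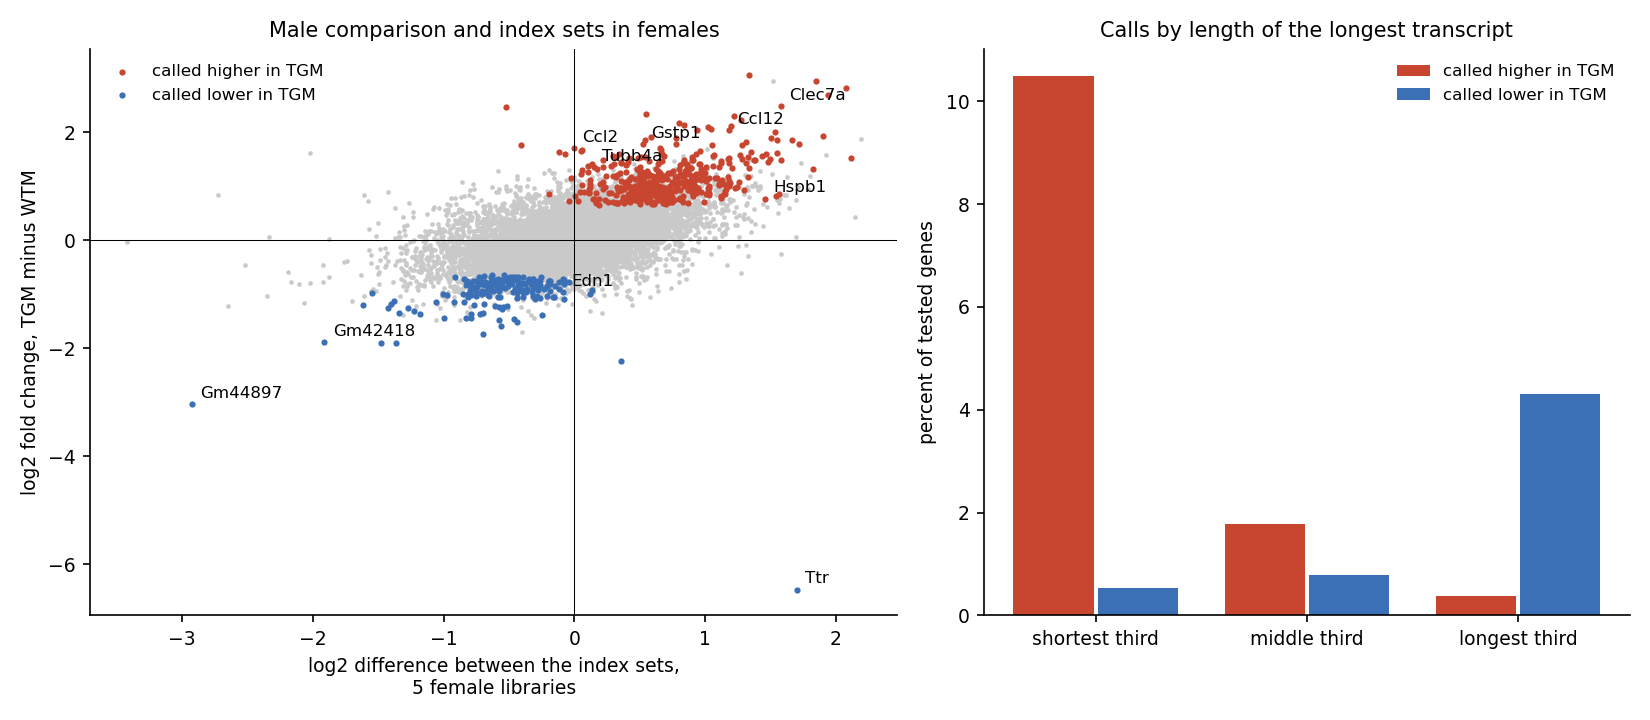
Left, log2 fold change of THY-Tau22 over WT males against the log2 difference between the index number sets in 5 female libraries, for 10530 genes, with genes called higher in red and lower in blue. Right, percent of tested genes called higher and lower in each tertile of transcript length. Of the red and blue points, 435 and 193 lie on the side of 0 that their male sign gives, and the percent called higher falls from 10.5% to 0.379% from the shortest to the longest tertile.

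Barcodes of the 6 libraries were clustered, and 4 classes named from markers were summed and tested. Microglia-like barcodes (2980) gave 354 calls among 4112 genes (8.61%), oligodendrocyte-like barcodes (2097) 258 among 3614 (7.14%), astrocyte-like barcodes (1863) 393 among 2839 (13.8%) and endothelial-like barcodes (1603) 172 among 2941 (5.85%). Of 1580 genes tested in all 4 classes, 26 were higher and 7 lower in each. The 26 included B2m (log2 fold changes of 1.49 to 1.78), Fth1 (0.99 to 1.34), Mt1, mt-Cytb, mt-Nd1, Cox8a, Atp5j and several ribosomal protein genes, and the 7 lower included Gm42418 (-2.26 to -1.79), Malat1, mt-Rnr1 and the long transcript Ccdc88a. No doublets were removed.

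In microglia-like barcodes 12 of 16 tested disease-associated genes were called higher, where 8.61% of all genes tested there were called. With finer clustering of all kept barcodes, a microglia-like cluster was led by Cd74, Clec7a and H2-Aa. It held 12, 19 and 5 barcodes of the WT and 95, 72 and 152 of the THY-Tau22 libraries. Macrophage-like barcodes fell from 137 to 63 in that clustering, so part of the cluster may lie outside the class tested here. Those genes define the cluster, so its size is a description and not a test. Ccl12 lay at 70.3, 77.3 and 68.4 CPM in WT and at 386, 239 and 288 CPM in THY-Tau22 males, a log2 fold change of 2.06 ± 0.27 (SE, adjusted p = 2.85e-06). H2-D1 read 311, 374 and 237 CPM against 959, 880.0 and 1244 CPM, and Apoe 404, 206 and 321 CPM against 1499.9, 525 and 1467 CPM. Clec7a, Lyz2, Trem2 and Tyrobp had log2 fold changes of 2.10, 1.61, 1.15 and 1.09, close to those over all barcodes. Cd74 was higher as well, at 5.26 to 17.2 CPM in WT and 62.1 to 137 CPM in THY-Tau22 males. Macrophage markers summed to 5.26 to 42.7 CPM in these barcodes in WT and to 10.2 to 36.0 CPM in THY-Tau22 males, and T and NK cell markers to 0 to 5.02 and 0 to 46.8 CPM. Of the homeostatic genes, 2 were called higher and none lower, and Cx3cr1 had a log2 fold change of -0.56 (adjusted p = 0.112).

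Oligodendrocyte-like barcodes gave 4 higher calls among 20 myelin genes, where 7.14% of all genes tested there were called. Gstp1 lay at 329, 423 and 328 CPM in WT and at 1669.7, 705 and 957 CPM in THY-Tau22 males (log2 fold change 1.63 ± 0.25, SE, adjusted p = 1.93e-04). Ptgds read 3198, 3197 and 3154 CPM against 5236, 5733 and 9854 CPM, with WT libraries almost equal. Mbp had a log2 fold change of 0.53 (adjusted p = 0.117), while Cryab, Gjb1 and Tubb4a rose by 1.15, 1.06 and 1.02 on the log2 scale.

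Astrocyte-like barcodes showed the glycolytic enzyme Aldoc at 2532, 2796 and 2408 CPM in WT and 5443, 4238 and 6931 CPM in THY-Tau22 males (log2 fold change 1.10 ± 0.21, SE, adjusted p = 2.38e-05). Apoe rose by 1.08, Id3, an inhibitor of basic helix-loop-helix factors, by 1.81, and Ubb, a polyubiquitin gene, by 1.77, all on the log2 scale. Pou3f2 fell by 1.24 on that scale, from 446 to 562 CPM in WT to 183 to 273 CPM. All 6 myelin genes tested in these barcodes were called higher, where 13.8% of all genes tested there were called. Oligodendrocyte markers summed there to 1034 to 1190 CPM in WT and 1064.5 to 3145 CPM in THY-Tau22 males. The part of RNA from other cells in that difference was not tested.

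Endothelial-like barcodes gave 5 higher calls each among 10 class I genes and 15 interferon-stimulated genes, where 5.85% of all genes tested there were called. B2m lay at 934, 1130.0 and 759 CPM in WT and 2503, 2899 and 3373 CPM in THY-Tau22 males (log2 fold change 1.63 ± 0.23, SE, adjusted p = 1.33e-05). H2-K1 rose by 1.31, Klf2 by 1.33, Ifitm3 by 1.15 and Hspa1a by 1.68 on the log2 scale. Tmem100, an endothelial protein of BMP9 signalling, read 113, 147 and 115 CPM against 29.4, 62.2 and 15.3 CPM. Of 14 blood-brain barrier genes 1 was called higher, the glycoprotein Bsg, whose libraries overlapped.

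Shares of barcodes in the classes could not reach 0.05 in a test of 3 against 3, whose smallest p is 0.1. Astrocyte-like barcodes were 18.6% ± 1.19 in WT and 15.6% ± 1.33 in THY-Tau22 males and endothelial-like 16.6% ± 1.11 and 12.7% ± 2.60, without overlap (exact permutation p = 0.1, adjusted p = 0.367 over 11 classes). Microglia-like barcodes were 29.3% ± 1.48 and 25.2% ± 6.58 (exact permutation p = 0.5). In barcodes of 500 to 7000 genes the astrocyte-like and microglia-like differences turned direction, to 2.74 and 7.02 percentage points higher in THY-Tau22 males. An unnamed cluster led by Ttr, Trpm3 and Kif5a held 29.9% of the barcodes of TGM 10 and 1.56% to 3.60% of those of the other 5 libraries. Its other leading genes were Enpp2, Igfbp2, mt-Tv, mt-Tp, mt-Tc, Gm10800 and Gm10801. Without its 660 barcodes 666 genes were called. Of these 666, 601 were among the 640 with the same direction. With finer clustering, an unnamed cluster led by Kif5a and without Ttr among its leading genes held 417 barcodes of TGM 10. Its other leading genes were the mitochondrial tRNA genes mt-Tl2, mt-Tv, mt-Tc, mt-Ta and mt-Tp, and Gm10800, Gm10801, Rn18s-rs5 and mt-Nd6. UMIs of its barcodes had a median of 0.681 relative to the library median. The quality of these barcodes was not tested. Ttr was then among the leading genes of an ependymal-like cluster, with 44 barcodes of WTM 1 and 1 of TGM 10. The name of the leading gene Ttr therefore does not describe the barcodes of TGM 10.

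The male difference was compared with that in females. No gene had a male minus female difference past the threshold among 11643 in edgeR (1482 at an unadjusted p under 0.05, smallest adjusted p = 0.139) or in DESeq2 (1374 at an unadjusted p under 0.05). Without WTF 16, however, 1142 genes did. The genes called higher in males had a median log2 genotype difference of -0.24 in females, and those called lower one of 0.12.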

How the data were processed

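Drop-seq libraries of mouse cortex were sequenced on an Illumina NextSeq 500, and the authors ran the standard Drop-seq pipeline, whose version and annotation are not given in the sources used here. The submitters' processing notes name mm10. The deposited values are UMI counts per gene and barcode, 3000 barcodes a table, not normalized. How the 3000 were chosen is not given in the sources used here, nor how reads of related genes were divided.

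Barcodes with 200 to 7000 detected genes were kept, the limits of the study's methods, and counts were summed per library. Its limit of 5% mitochondrial UMIs, counted over all mitochondrial genes but mt-Rnr1 and mt-Rnr2, was an alternative. The sums were tested in edgeR 4.0.16 (R 4.3.3) by the quasi-likelihood test with TMM library sizes, filterByExpr and Benjamini-Hochberg adjustment over all genes tested. CPM here are those sums scaled to a common total by TMM library sizes, except where totals are named. A gene was called at an adjusted p below 0.05 with a log2 difference of 0.5 or more in either direction. The test recovered known changes in counts simulated from its own fitted means and spread, with no index difference put in. That checks the calculation and not the calls reported here. Cells were not used as replicates, as they would be in a test over barcodes. Barcodes were clustered in scanpy 1.11.5 (2500 variable genes, 19 components, 20 neighbours, leidenalg 0.10.2 at resolution 0.5), and clusters with at least 3 markers were named. No doublet caller was run. Library measures and shares were compared by two-sided exact permutation tests. Transcript lengths came from GENCODE M21, which matched 97.8% of the genes tested, and promoters from RefSeq.

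A few genes are not reported here. Members and gene lists were chosen with earlier results of these data known. The text names label-check genes, the called genes with the smallest adjusted p, called and most abundant list members and the genes of the study's main table. Ttr, Trpm3, Kif5a, the other leading genes of unnamed clusters and the genes common to 4 classes were chosen after their values were seen. Alternatives were DESeq2 1.42.0, other scalings and filters, other sets of libraries and each library left out. Intervals and tests on counts cover the depth given here, and genes under about 50 UMIs a library are the least precise.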

Additional observations from a re-analysis of the deposited data

Results flagged for a closer look

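In 3 measures of library make-up the sexes differed in their genotype difference, by exact permutation of genotypes within each sex over 1120 assignments. The THY-Tau22 minus WT difference in mitochondrial mRNA was 0.727 percentage points of UMIs larger in males than in females (exact permutation p = 0.0375), that in ribosomal protein mRNA 1.09 points larger (p = 0.0455), and that in Malat1 was -2.48 points (p = 0.0464). After adjustment over 10 measures each had an adjusted p of 0.145. In males the groups did not overlap in these measures (higher, higher and lower in 3 of 3 THY-Tau22 libraries than in every WT library), and the mean differences in females were -0.101, -0.257 and 0.521 points. In males the index numbers move with genotype and in females they do not, and the 2 cannot be told apart.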

How the results depend on the processing

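No paired analysis was possible because the groups share no replicate number. The 640 calls over all barcodes became 0 with 14 libraries and a shared spread, with all 8 males, with TGM 11 added and with the index-number term (chosen after seeing the data, as were leaving out the largest unnamed cluster and leaving out Gm42418 and Gm26917 with the mitochondrial genes), 1113 with library totals alone, 330 with barcodes of 500 to 7000 genes, and 53 to 931 with a library left out. Under the other 14 settings there were 534 to 889 calls, of 692 without each gene's top barcode 613 being among the 640. Male minus female calls went from 0 to 182 with no filter on low counts, and from 0 to 1142 over fits without a library (1142 without WTF 16, 0 in the others). DESeq2 and no filter gave 223 and 184 calls in microglia-like, 129 and 100 in oligodendrocyte-like, 120 and 142 in astrocyte-like and 110 and 78 in endothelial-like barcodes, and leaving out a library 95 to 554, 32 to 410, 111 to 453 and 19 to 346, lowest without WTM 1 and highest without TGM 8 in all 4. The cause was not tested.

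With the index-number term the log2 fold change turned to 0.00316 for Gm42418, -0.37 for Gpx1, -0.71 for Hspb1, -0.24 for Ifitm3, -0.31 for Klf2, -0.0419 for Lamp1, -0.31 for Ly6e, -0.00902 for Prdx1, -0.0182 for Rps16-ps2, -0.17 for Ubb and 0.20 for mt-Rnr1. Ttr ranged from -8.01 to 0.82 when a library was left out, positive without WTM 1, and Bsg in astrocyte-like barcodes from -0.0164 to 1.09, negative without TGM 10.

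The difference in median UMIs per barcode turned to -39 with 500 to 7000 genes and -26.2 to 82.8 without a library, and that in median genes 17.5 to 75. Astrocyte-like and microglia-like shares turned from lower to higher in THY-Tau22 males with 500 to 7000 genes, by 2.74 and 7.02 points. Leaving out a library gave differences of 0.486 to 0.697 (mitochondrial mRNA), -9.09 to -6.13 (mitochondrial ribosomal RNA), -2.26 to -1.58 (Malat1), 0.739 to 0.960 (ribosomal proteins) and 0.365 to 0.473 points (immediate early genes) and, for shares, -2.85 to -1.16 (OPC-like), -3.68 to -2.28 (astrocyte-like), -4.67 to -2.42 (endothelial-like), -0.430 to 0.0647 (ependymal-like), 0.287 to 0.700 (fibroblast-like), 0.680 to 1.20 (macrophage-like), -6.89 to -0.485 (microglia-like), -0.302 to 0.242 (mural-like), -1.87 to -0.665 (neuron-like), -0.0329 to 6.94 (oligodendrocyte-like) and 0.391 to 14.4 points (unnamed).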

Other observations

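Ttr, a transthyretin transcript that is typical of the choroid plexus, was called lower in THY-Tau22 males (log2 fold change -6.46, adjusted p = 0.0188) on the strength of 1 library. It lay at 4457 CPM in WTM 1, on 8316 UMIs, and at 1.91 and 18.6 CPM in WTM 3 and WTM 5, against 0, 40.2 and 9.99 CPM in THY-Tau22 males. Without WTM 1 its log2 fold change was 0.82 (adjusted p = 0.616).

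Gm44897, a short unclassified transcript, lay at 15.5, 12.4 and 18.6 CPM in WT and 0.951, 2.41 and 1.87 CPM in THY-Tau22 males, on 1 to 29 UMIs per library, with an index difference of -2.93 in females beside -3.03 in males. Gadd45b, a stress-inducible gene, rose from 62.1 ± 10.00 to 174 ± 38.3 CPM in THY-Tau22 males, with an index difference of 1.37.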
